A study of Mus musculus with 8 samples.

Results

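Amino acid transporter genes were examined in SV-LECs, an SV40-immortalized line of mouse lymphatic endothelial cells from mesenteric adventitial tissue, that had either been left untreated or exposed to TGFβ1 at 10 ng/ml for 72 h. The genes were taken by symbol from the solute carrier families Slc1, Slc3, Slc6, Slc7, Slc36, Slc38 and Slc43, which gave 61 genes of the 55471 in the count table. Slc7a6os, which carries a transporter's name but encodes another protein, was left out, and so were Slc6a20a and Slc6a20b, whose symbols end in a letter and which had at most 5 counts in any library. Each group had 4 poly(A) libraries, and both groups shared the same immortalized line and growth medium, high-glucose DMEM with serum. The methods of the study call the 4 samples of a group technical replicates, so every error and p-value here covers the spread between libraries of a single line and not between independent experiments.

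Amino acids cross cell membranes through carriers that differ in substrate and in driving force. Some, such as the SNAT carriers of Slc38 and the GABA, taurine, creatine and glycine carriers of Slc6, use the sodium gradient to concentrate their substrate. Others are exchangers that trade an amino acid inside the cell for another outside, and several of the Slc7 exchangers reach the surface only as light chains bound to the heavy chain encoded by Slc3a2. When amino acids run short, the transcription factor ATF4 drives many genes for uptake and synthesis, Slc7a11 and Slc7a5 among the known targets. Not all genes of these families carry amino acids. Slc6a2, Slc6a3 and Slc6a4 encode monoamine carriers, Slc6a8 a creatine carrier, and Slc43a3 a carrier of purine nucleobases.

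A core of the C/EBP-ATF response element, TGATGNAA on either strand, was sought in RefSeq promoters (GRCm38.p6, 250 bases before to 50 after each start), which matched 19 of the 29 transporter genes that were tested. It lay in 3 of these 19 genes and in 4.51% of all 27025 genes with a promoter in the table. The 3 genes were Slc7a11 and Slc1a4, which were lower after TGFβ1, and Slc7a7, which was higher. Slc1a5, Slc6a6, Slc6a8, Slc7a2, Slc7a3, Slc7a4, Slc7a5, Slc38a1, Slc38a3 and Slc43a3 had no promoter in the table and were not searched. The stretches from position -120 to 10 around the start, with position 1 as the first transcribed base, are shown because the same core stood at or near an annotated start of genes that moved in opposite directions. Capitals mark the core or its reverse complement. All 3 lie on the minus strand, at chr3:50443604-50443733, chr11:20332704-20332833 and chr14:54417935-54418064 in the order shown.
Slc7a11: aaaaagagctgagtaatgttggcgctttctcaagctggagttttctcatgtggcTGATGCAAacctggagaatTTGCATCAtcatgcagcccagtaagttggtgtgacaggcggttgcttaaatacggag
Slc1a4: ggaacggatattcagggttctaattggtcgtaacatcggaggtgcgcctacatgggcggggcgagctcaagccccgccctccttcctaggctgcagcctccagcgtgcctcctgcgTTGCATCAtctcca
Slc7a7: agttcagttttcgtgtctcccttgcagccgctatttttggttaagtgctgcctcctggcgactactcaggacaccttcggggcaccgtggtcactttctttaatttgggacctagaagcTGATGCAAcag
By the position of its first base, the core began at -66 and -47 in Slc7a11, wholly before the start, and at -4 in Slc1a4, across the start. In Slc7a7 it began at -1, so that nearly all of it is transcribed from this start, and another core at -141 lies outside the stretch shown. Slc7a7 has 5 promoters in the table, of which 3 hold no core and 1 holds the same genomic site, at -243 from its own start. The start shown lies upstream of the gene as GENCODE M21 places it (54369442 to 54417780), and the counts do not tell which start is used. A match of letters is a description of the promoter and no evidence of binding in these cells.

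The E-box CACGTG, searched in the same promoters, stood in 4 of the 19 genes against 8.09% of all genes. The 4 genes were Slc36a1 (higher), Slc38a7 (lower), and Slc1a6 and Slc43a1 (not called). The SMAD palindrome GTCTAGAC was in none of the 19 and in 0.248% of all genes.

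Total counts lay between 18952504 and 26386941 per library, and 3 counts, taken as the detection floor, equalled between 0.113 and 0.162 CPM (counts of a gene per 1000000 counts of its library, with library sizes normalized by TMM). No pair of libraries within a group matched within sampling noise (chi-square per degree of freedom 2.37 to 7.84). The defining endothelial genes were largely missing. Of 9 pan-endothelial markers 3 were high enough to test, and 2 of them were higher. Eng rose from 62.0 ± 3.69 to 143 ± 3.81 CPM and Kdr from 11.6 ± 0.548 to 22.1 ± 0.761 CPM (SD, n = 4). Tek, with at most 18 counts in any library, was not called. The other 6, Pecam1 and Cdh5 among them, had at most 10 counts in any library. Of 6 lymphatic markers, Pdpn (lower) and Flt4 (higher) were tested, while Prox1, Lyve1, Reln and Ccl21a had at most 3 counts in any library. Fibroblast and mural cell markers were abundant and moved in both directions, with 3 of 5 tested genes higher and 2 lower. Their summed level, 3215 to 4555 CPM in untreated libraries and 5557 to 6684 after TGFβ1, was mostly that of the collagen gene Col1a1 (3459 ± 611 CPM before, 6057 ± 530 after, SD, n = 4). Cspg4 and Pdgfrb also rose, whereas Dcn fell from 312 ± 11.7 to 83.0 ± 6.48 CPM and Pdgfra from 160 ± 10.5 to 57.8 ± 3.91 CPM (SD, n = 4). Lum and Rgs5 had at most 9 counts in any library. The leukocyte markers Ptprc, Itgam and Cd3e had at most 3 counts in any library, and Cd68 alone was tested and higher, which put the summed level of that list at 5.83 to 7.82 CPM before and 14.9 to 17.0 after. The summed level of 4 epithelial markers was 0.304 to 1.14 CPM before and 2.36 to 4.11 after, with both genes tested, Krt8 and Krt18, higher. The part of these markers in the results on transporters was not tested. In bulk RNA, fewer cells that use a gene and less RNA of it per cell cannot be told apart.

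Of the 61 genes, 29 passed the filter on low counts and 32 did not. Among these 32, 10 had no count in any library, and 25, these 10 included, had at most 3 in every library. They included the monoamine carrier genes Slc6a2, Slc6a3 and Slc6a4 and the glutamate carrier gene Slc1a7. The genes that passed comprised 8 of 15 in Slc7, 7 of 11 in Slc38, 4 of 7 in Slc1, 3 of 3 in Slc43, 2 of 4 in Slc36, 1 of 2 in Slc3 and 4 of 19 in Slc6. Slc7a8, the gene for the light chain LAT2, had 3 to 14 counts per library and was not tested. Slc38a8, a glutamine carrier gene, had 0 to 1 counts in untreated libraries and 6 to 16 after TGFβ1, at least 3.95-fold higher against the mean floor of the untreated group. Slc38a4, a system A carrier gene, went from between 1 and 4 to between 6 and 11 counts. Both were below the filter, and DESeq2, which tested them, called both higher.

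At a false discovery rate (FDR, Benjamini-Hochberg over all 13818 genes tested) under 0.05 by edgeR's likelihood ratio test, 12 of the 29 transporter genes were higher after TGFβ1, 14 were lower and 3 were not called. Over all genes tested, 75.6% were called, 37.6% higher and 38.0% lower, so a call was frequent anywhere in this comparison, and 89.7% of the transporter genes received one. The groups of libraries did not overlap for 24 of the 29 (82.8%), against 69.8% of all genes. The median absolute log2 fold change was 0.64 for the transporter genes and 0.39 for all genes, and the median with sign was -0.06 and -0.01. The genes that fell were mostly abundant, with a median of 102 CPM in untreated libraries and 12 of 14 above 50 CPM. Those that rose had a median of 16.4 CPM, with 5 of 12 above 50 CPM. These levels were not set beside those of all called genes, so the difference may not be particular to transporters.

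**Figure D1:**
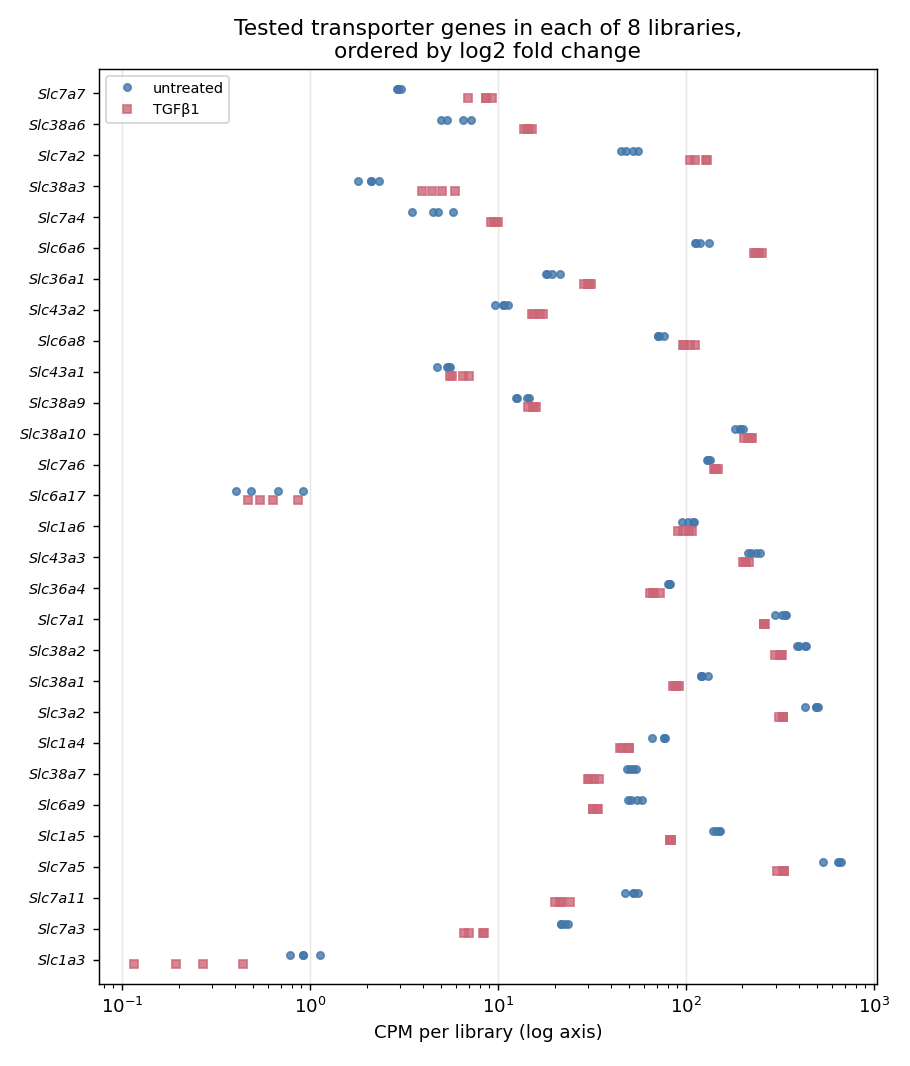
CPM of the 29 tested transporter genes in each library on a log axis, 4 untreated libraries as circles and 4 TGFβ1-treated libraries as squares, ordered from the largest rise at the top to the largest fall at the bottom. The groups are apart in 24 genes, and the most abundant genes, Slc7a5 and Slc3a2, lie in the lower part of the plot among those that fell.

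Summed over all 61 genes, the level was 3416 ± 95.8 CPM in untreated and 2846 ± 31.1 CPM in TGFβ1-treated libraries (SD, n = 4 libraries per group). Per kilobase of exon, which allows levels of different genes to be compared, the sum was 688 ± 27.1 before and 540 ± 4.65 after. Slc7a5 at 169 ± 16.1 CPM per kb and Slc3a2 at 136 ± 9.14 led in untreated cells, followed by Slc43a3 at 51.3 ± 3.39, Slc1a6 at 48.6 ± 3.30 and Slc38a2 at 46.7 ± 2.50. The spreads of these last 3 levels overlapped. After TGFβ1 the first 2 were close to each other, with Slc3a2 at 91.8 ± 2.42 and Slc7a5 at 87.6 ± 3.31. The next 3 were the same genes, and Slc43a3 at 46.6 ± 1.40 and Slc1a6 at 46.4 ± 3.55 could not be ranked. Of the 10 genes with the highest level per kb in untreated cells, 7 fell, 2 rose and 1 was not called. The share of the summed level per kb held by the 5 highest genes went from 65.6% ± 0.970 to 57.1% ± 1.17.

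**Figure D2:**
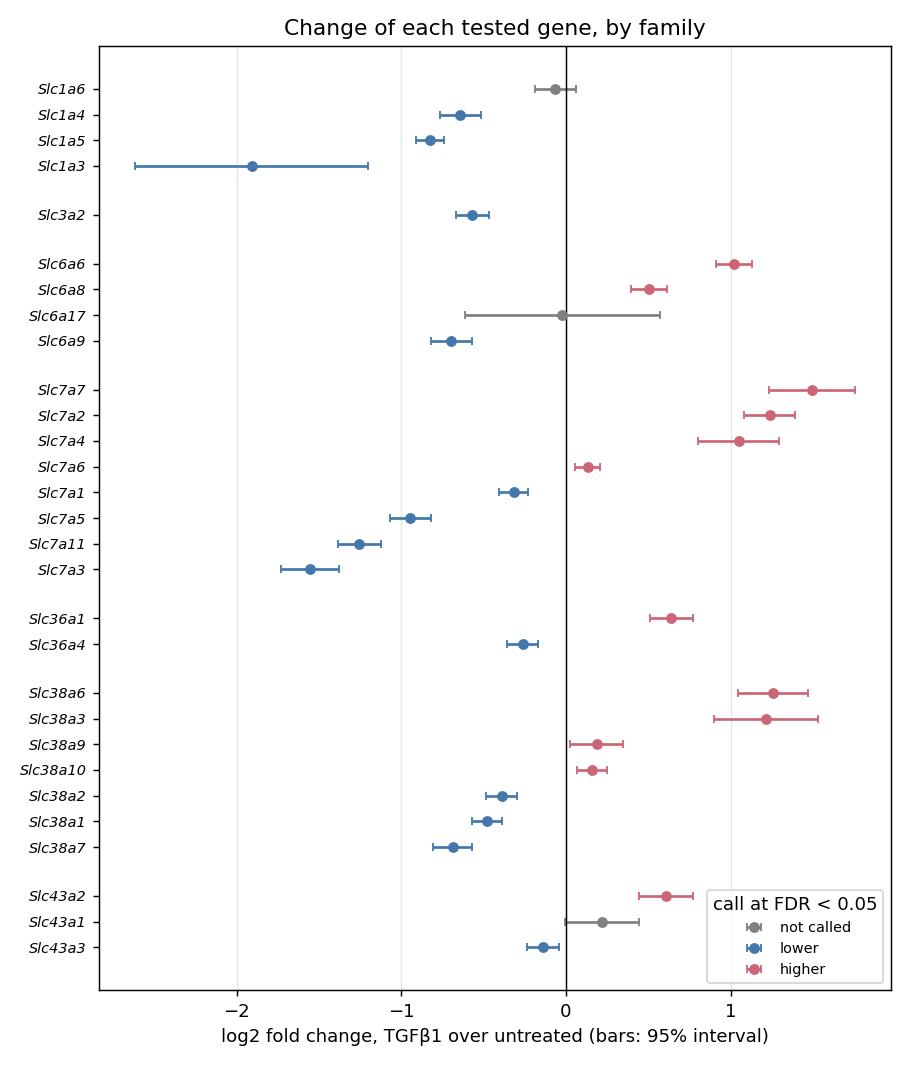
Log2 fold change of TGFβ1-treated over untreated libraries for the 29 tested genes, grouped by family, with bars for the 95% interval from the fitted standard error. Slc7 and Slc38 hold large changes in both directions, whereas no tested Slc1 gene rose, and Slc1a3 and Slc6a17, the genes with the fewest counts, have the widest intervals.

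The heavy chain and its main light chain fell together. Slc3a2 (ENSMUSG00000010095, chromosome 19, 8706882 to 8723369 on GRCm38), whose product carries the light chains to the surface, had 494, 502, 493 and 433 CPM in untreated replicates 1 to 4 and 311, 329, 327 and 329 CPM in treated ones. The log2 fold change was -0.57 with an SE of 0.051 (edgeR, FDR = 1.79e-28). Slc7a5 (ENSMUSG00000040010, chromosome 8, 121881150 to 121907694) encodes LAT1, the exchanger that brings in leucine and other large neutral amino acids against glutamine. It had 651, 670, 641 and 537 CPM before and 307, 327, 333 and 333 CPM after TGFβ1, without overlap. For Slc7a5 the log2 fold change was -0.94 ± 0.063 (SE, edgeR FDR = 2.43e-49). In both genes the groups were far apart, and untreated replicate 4 was the lowest of its group. Without that library the log2 fold changes were -0.62 for Slc3a2 and -1.01 for Slc7a5.

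The light chain of the cystine for glutamate exchanger xCT, which supplies cysteine for glutathione, fell as well. Slc7a11 (ENSMUSG00000027737, chromosome 3, 49892526 to 50443614) had 52.4, 55.4, 52.7 and 47.6 CPM in untreated and 24.1, 21.4, 20.2 and 21.7 CPM in treated libraries, without overlap. For Slc7a11 the log2 fold change was -1.25 ± 0.068 (SE, edgeR FDR = 3.46e-76). Its values are given library by library although it is not the extreme gene of its family, a choice made after they were seen. The other 2 tested light chains of the same heavy chain rose. Slc7a7 (ENSMUSG00000000958, chromosome 14, 54369442 to 54417780), for y+LAT1, which exports cationic amino acids in exchange for neutral ones, was near 3 CPM in every untreated library, from 2.89 to 3.04, and had 9.25, 8.62, 8.61 and 6.91 CPM after TGFβ1. Of its exons, 7.00% lie opposite those of Oxa1l, whose reads cannot be told apart from its own if strand was not used in counting. This was the largest rise of all tested transporter genes, without overlap of the groups and with a log2 fold change of 1.49 ± 0.13 (SE, edgeR, FDR = 7.41e-30). Its paralog Slc7a6, for y+LAT2, rose from 132 ± 1.77 to 144 ± 3.60 CPM (SD, n = 4), a log2 fold change of 0.13 that missed the threshold with library totals as the only scaling (FDR = 0.132 from edgeR).

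The balance of light chains shifted toward Slc7a6 and Slc7a7. Per kb of exon, Slc7a5 made up 83.3% ± 1.51 of the light chain level (Slc7a5, Slc7a6, Slc7a7, Slc7a8 and Slc7a11 together) in untreated libraries and 71.0% ± 1.42 after TGFβ1. Slc7a6 went from 14.3% ± 1.41 to 25.6% ± 1.10, and Slc7a7 from 0.443% ± 0.048 to 2.04% ± 0.272. The groups did not overlap in any of these 3 shares. In mean CPM per kb, Slc7a5 fell from 169 to 87.6, while Slc7a6 went from 28.8 to 31.6 and Slc7a7 from 0.889 to 2.52. The level of the light chains relative to Slc3a2 was 1.48 ± 0.020 before and 1.34 ± 0.013 after, and these ratios are given without a test. Exon lengths include every annotated transcript, 13.9 kb for Slc7a11, so levels per kb of genes with long rare transcripts are understated.

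**Figure D3:**
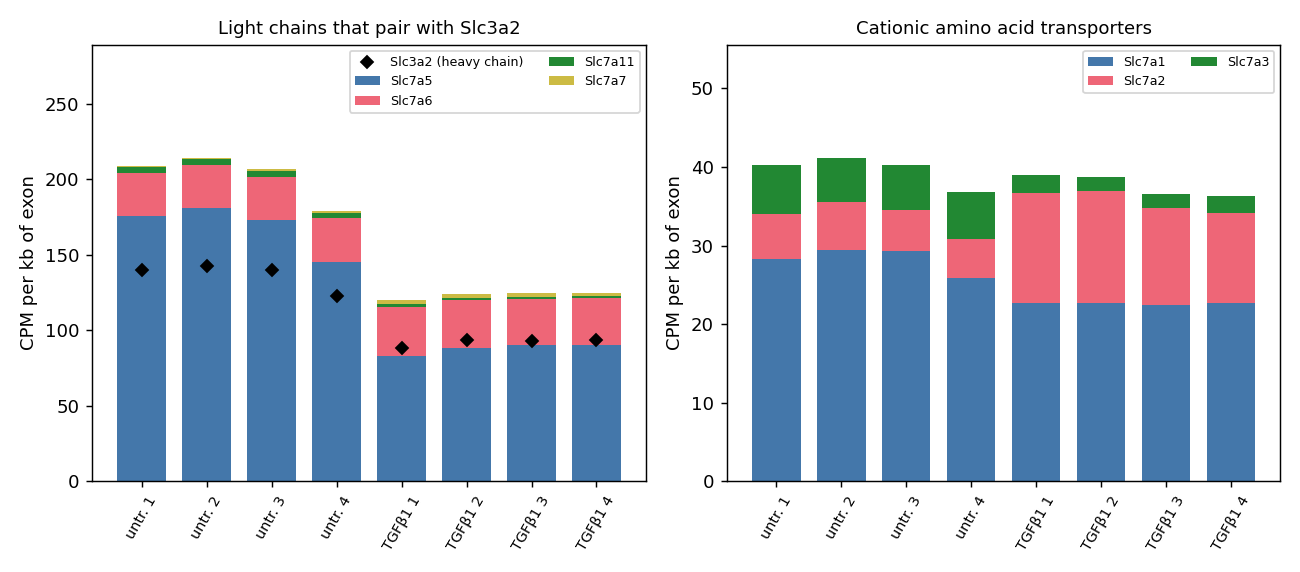
CPM per kb of exon in each library for the light chains of Slc3a2, with the heavy chain itself as diamonds (left), and for the 3 cationic amino acid transporter genes (right), as stacked bars from 0. On the left the Slc7a5 part and the diamonds drop in all 4 treated libraries, and on the right the total stays near 40 while the Slc7a2 part widens and the Slc7a3 part shrinks. Slc7a8 is too low to be drawn.

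The cationic transporters, which take up arginine, lysine and ornithine without sodium, moved apart. Slc7a3 (ENSMUSG00000031297, chromosome X, 101079210 to 101086020), for CAT3, had 23.6, 21.6, 21.5 and 22.7 CPM in untreated and 8.33, 6.62, 6.99 and 8.38 CPM in treated libraries, without overlap. The log2 fold change of -1.55 with an SE of 0.090 (edgeR, FDR = 1.01e-68) was the largest fall within Slc7. Slc7a1, for the widely expressed CAT1, fell from 325 ± 18.9 to 261 ± 1.33 CPM (SD, n = 4), a log2 fold change of -0.32. Slc7a2 (ENSMUSG00000031596, chromosome 8, 40862396 to 40922308), for CAT2, known from cells that make nitric oxide with the inducible synthase, went the other way and is also shown by library because of its values. It had 52.4, 55.6, 47.9 and 45.3 CPM before and 128, 130, 112 and 105 CPM after, without overlap. For Slc7a2 the log2 fold change was 1.24 ± 0.079 (SE, edgeR FDR = 2.79e-53), and 6.95% of its exons lie opposite those of the lincRNA gene Gm26584. Per kb, Slc7a2 went from 13.9% ± 0.791 to 34.5% ± 2.39 of the 3 CAT genes and Slc7a3 from 14.9% ± 1.15 to 5.33% ± 0.690, while their sum was 39.6 ± 1.90 CPM per kb before and 37.7 ± 1.36 after, with overlapping libraries. Slc7a4, a relative with no established substrate, rose from 4.64 ± 0.946 to 9.64 ± 0.359 CPM (SD, n = 4), with 13.3% of its exons opposite those of P2rx6.

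The Slc1 family divides into sodium-coupled carriers of glutamate and aspartate and the neutral exchangers ASCT1 and ASCT2. Slc1a5 (ENSMUSG00000001918, chromosome 7, 16781340 to 16798274), for ASCT2, a main entry route of glutamine in growing cells, had 152, 145, 149 and 140 CPM in untreated libraries and 82.8, 82.7, 83.1 and 83.0 CPM in treated ones. The treated libraries were nearly identical, and the log2 fold change was -0.82 with an SE of 0.043 (edgeR, FDR = 3.74e-79). Slc1a4, for ASCT1, which favours serine, alanine and cysteine, fell from 74.1 ± 5.63 to 47.5 ± 2.71 CPM (SD, n = 4), a log2 fold change of -0.64. Slc1a3 (ENSMUSG00000005360, chromosome 15, 8634124 to 8710764), for the glutamate carrier GLAST, had 19, 30, 18 and 18 counts before and 5, 4, 9 and 3 counts after, at 0.786 to 1.13 and 0.116 to 0.443 CPM. Its fall of 1.91 on the log2 scale with an SE of 0.36 (edgeR, FDR = 8.20e-09) rests on these few reads, and the gene drops out when 1 CPM is required in 4 libraries. Slc1a6, for EAAT4, a glutamate carrier best known from cerebellar Purkinje cells, was the fourth most abundant transporter gene per kb and had 111, 109, 103 and 95.2 CPM in untreated against 90.8, 96.8, 104 and 108 CPM in treated libraries. These overlapped, and the log2 fold change was -0.06 (95% interval -0.19 to 0.06, FDR = 0.357 from edgeR), although with library totals as the only scaling it was called lower (-0.13, FDR = 0.0495 from edgeR).

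Among the Slc38 genes, the 2 tested system A carriers of glutamine, alanine and serine fell, as did Slc38a7. Slc38a3, Slc38a6, Slc38a9 and Slc38a10 were called higher. Slc38a2 (ENSMUSG00000022462, chromosome 15, 96687392 to 96699730), for SNAT2, the system A carrier induced by amino acid shortage, had 435, 397, 391 and 429 CPM in untreated and 325, 321, 298 and 317 CPM in treated libraries, a clear gap between the groups. The log2 fold change was -0.39 with an SE of 0.048 (edgeR, FDR = 1.56e-15). Its neighbour on the chromosome, Slc38a1 for SNAT1, fell from 123 ± 4.96 to 88.6 ± 2.79 CPM (SD, n = 4), a log2 fold change of -0.48. The share of Slc38a2 in the level per kb of the pair was 86.7% ± 0.559 before and 87.4% ± 0.475 after, with overlapping libraries. Slc38a3, for the system N glutamine carrier SNAT3, rose from 2.09 ± 0.223 to 4.84 ± 0.852 CPM (SD, n = 4), a log2 fold change of 1.22. Slc38a6 (ENSMUSG00000044712, chromosome 12, 73286779 to 73354049), whose substrate is not settled, had 4.96, 6.54, 7.16 and 5.38 CPM before and 15.2, 14.7, 13.8 and 14.2 CPM after, without overlap. For Slc38a6 the log2 fold change was 1.26 ± 0.11 (SE, edgeR FDR = 3.64e-31). Its annotated transcripts share stretches of 75 bases, the read length, with transcripts of 159 other genes, up to 21.0% of them with a single gene, so its reads are uncertain. Slc38a10 rose from 193 ± 7.17 to 216 ± 9.48 CPM (SD, n = 4), a log2 fold change of 0.16 that was not significant with library totals as the only scaling (FDR = 0.0578 from edgeR).

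Neither the carriers of the lysosomal membrane nor the proton-coupled carriers of Slc36 moved as one. Slc38a7 (ENSMUSG00000036534, chromosome 8, 95835920 to 95853539), for SNAT7, which releases glutamine and asparagine from lysosomes, had 50.4, 48.8, 52.4 and 54.3 CPM in untreated and 34.5, 32.6, 30.3 and 30.5 CPM in treated libraries, without overlap. For Slc38a7 the log2 fold change was -0.69 ± 0.060 (SE, edgeR FDR = 4.08e-30). Slc38a9, whose product senses lysosomal arginine for mTORC1, had 12.5 to 14.6 CPM before and 14.5 to 16.0 CPM after. These overlapped, and the call (log2 fold change 0.19, FDR = 0.0301 from edgeR) was lost with DESeq2 (FDR = 0.0816), with library totals (FDR = 0.174 from edgeR), without a filter on low counts (FDR = 0.117 from edgeR) and without any of 5 single libraries. Slc36a1 (ENSMUSG00000020261, chromosome 11, 55204350 to 55236330), for the proton-coupled carrier PAT1 of small amino acids, rose from 18.1, 19.5, 18.3 and 21.5 CPM to 30.1, 31.1, 28.8 and 30.4 CPM, without overlap. For Slc36a1 the log2 fold change was 0.64 ± 0.066 (SE, edgeR FDR = 5.41e-22). Slc36a4 (ENSMUSG00000043885, chromosome 9, 15709738 to 15743361), for its relative PAT4, which has high affinity for proline and tryptophan, had 80.8, 81.3, 81.4 and 82.3 CPM before and 72.9, 64.6, 66.6 and 67.5 CPM after. Its groups were apart as well, in the opposite direction, and the log2 fold change was -0.26 ± 0.048 (SE, edgeR, FDR = 9.31e-08).

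In Slc6, the osmolyte and creatine carriers rose and the glycine carrier fell. Slc6a6 (ENSMUSG00000030096, chromosome 6, 91684053 to 91759066), for the taurine carrier TauT, went from 119, 112, 113 and 133 CPM to 254, 237, 231 and 245 CPM, without overlap. For Slc6a6 the log2 fold change was 1.02 ± 0.056 (SE, edgeR FDR = 3.56e-71). Per kb this moved it from the 11th to the 8th place among the tested genes. Slc6a8, for the creatine carrier, rose from 72.5 ± 2.55 to 103 ± 7.33 CPM (SD, n = 4), a log2 fold change of 0.50. Slc6a9 (ENSMUSG00000028542, chromosome 4, 117834506 to 117875198), for the glycine carrier GlyT1, fell from 58.3, 55.2, 51.0 and 49.2 CPM to 33.8, 34.2, 32.1 and 32.0 CPM, without overlap. For Slc6a9 the log2 fold change was -0.70 ± 0.063 (SE, edgeR FDR = 1.95e-27). Of its exons, 27.8% lie opposite those of Ccdc24, and the use of strand in counting is not given in the sources used here. Slc6a17, a carrier gene of neuronal vesicles with 8 to 21 counts per library, was not called (log2 fold change -0.02, 95% interval -0.61 to 0.57).

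Of the Slc43 genes 1 rose, 1 fell and 1 was not called. Slc43a2 (ENSMUSG00000038178, chromosome 11, 75531694 to 75577575), for LAT4, a facilitated carrier of branched-chain amino acids, methionine and phenylalanine, rose from 9.64, 11.3, 10.7 and 10.8 CPM to 16.7, 17.3, 15.5 and 15.2 CPM, without overlap. For Slc43a2 the log2 fold change was 0.61 ± 0.084 (SE, edgeR FDR = 1.22e-12), and 9.18% of its exons lie opposite those of the antisense gene Gm45606. Slc43a1, for the similar LAT3, had 5.27 ± 0.372 CPM before and 6.18 ± 0.673 CPM after and was not called (SD, n = 4, log2 fold change 0.22, 95% interval -0.01 to 0.45, FDR = 0.0734 from edgeR), but it passed without TGFβ1 replicate 2 (FDR = 0.0408 from edgeR) or 4 (FDR = 0.0494 from edgeR). Slc43a3 (ENSMUSG00000027074, chromosome 2, 84936579 to 84958509), the nucleobase carrier gene, had 221, 213, 235 and 247 CPM before and 208, 216, 206 and 201 CPM after. Its groups overlapped, and the log2 fold change was -0.14 with an SE of 0.050 (edgeR, FDR = 0.00819).

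By substrate, the exchangers and sodium-coupled carriers of neutral amino acids with high levels fell (Slc7a5, Slc1a5, Slc1a4, Slc38a1 and Slc38a2), as did the cystine exchanger and the glycine carrier. For the large neutral amino acids, Slc7a5 fell, Slc43a2 rose and Slc43a1 was not called. For the cationic ones, Slc7a1 and Slc7a3 fell, and Slc7a2 and both exchangers of cationic for neutral amino acids, Slc7a6 and Slc7a7, rose. The 3 tested genes whose substrate was left unassigned, Slc7a4, Slc38a6 and Slc38a10, all rose.

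Genes that sense, use or carry amino acids elsewhere in the cell were counted for comparison. Their counts are to be read beside the 37.6% of all genes that were higher and the 38.0% that were lower. The response to amino acid shortage was the most one-sided of the 8 lists, with 11 of 12 genes lower, 1 higher and a median log2 fold change of -0.76, against -0.01 for all genes. The lists were chosen with earlier results of these data known, so this ranking is no independent finding. Atf4 itself fell from 484 ± 18.4 to 246 ± 11.8 CPM (SD, n = 4), named outside the rule because the list is built around it. The largest falls were those of Trib3, an ATF4 target that restrains AKT, with a log2 fold change of -1.83, and Chac1, which degrades glutathione, with -1.75. Ddit4, an inhibitor of mTORC1 with several other inducers, rose by 0.92. Among 28 genes of amino acid sensing upstream of mTORC1, 13 were higher, 7 lower and 8 not called, with a median of 0.12. The arginine sensor Castor1 (0.73) and the Rag GTPase gene Rragd (1.36) rose most, and the GATOR2 gene Seh1l (-0.58) and Lamtor5 (-0.46) fell most. The rise of Rragd rests on few reads, at most 44 counts in any library, and went from 0.667 ± 0.246 to 1.78 ± 0.114 CPM (SD, n = 4). The summed level of the shortage list was 1512 to 1742 CPM in untreated and 845 to 939 CPM in treated libraries, without overlap.

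Enzymes that use the imported amino acids were counted by pathway, to be read beside the 37.6% of all genes that were higher and the 38.0% that were lower. The lists hold 6 to 8 tested genes each, and differences between them were not tested. For glutamine and glutamate, 5 of 8 genes were lower and 2 higher, with Glul, which makes glutamine, at -1.56 and the alanine transaminase gene Gpt2 at -1.38, and with Gls2 (0.72) and Gpt (0.27) higher. For cystine and glutathione, 5 of 7 were higher and 2 lower: Gss, for glutathione synthetase, rose by 1.08 and Ggt5, a gamma-glutamyltransferase gene, went from 0.207 ± 0.095 to 3.73 ± 0.691 CPM (SD, n = 4), whereas Oplah (-0.59) and Gclm (-0.58) fell. For arginine and ornithine, 2 of 6 were higher, Nos2 for the inducible nitric oxide synthase (2.09) and Ass1 for the synthesis of arginine from citrulline (1.80), and 3 were lower, led by Asl (-0.45) and Odc1 (-0.25). These values stand beside the rise of Slc7a2 and the fall of Slc7a1 and Slc7a3 without a test of any link. For branched-chain amino acids, 4 of 6 were lower, led by Dbt (-0.45) and Bckdk (-0.35), and Bcat1 was higher (0.12). For creatine and taurine, 3 of 7 were higher, with the creatine kinase gene Ckb at 1.64 and Ckmt1 going from 0.156 ± 0.045 to 12.3 ± 1.96 CPM (SD, n = 4), and 2 were lower, with Cdo1, which starts taurine synthesis from cysteine, at -1.94 and Ado at -0.49. All differences named without a unit in this account are log2 fold changes from edgeR's likelihood ratio test with an FDR under 0.05.

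Other amino acid carriers were counted from a chosen list, which may not hold every carrier outside the 7 families. They were likewise mixed, with 8 of 16 tested genes higher, 6 lower and a median of 0.12. Over all genes tested, 37.6% were higher and 38.0% lower. The mitochondrial glutamate carrier gene Slc25a22 rose by 1.14 and Slc17a7, for a vesicular glutamate carrier, by 1.41 from 1.17 ± 0.375 CPM (SD, n = 4), whereas Sfxn1, for the mitochondrial serine carrier, fell by 0.72 and Slc16a10, for the aromatic amino acid carrier TAT1, by 0.43 on the log2 scale.

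**Figure D4:**
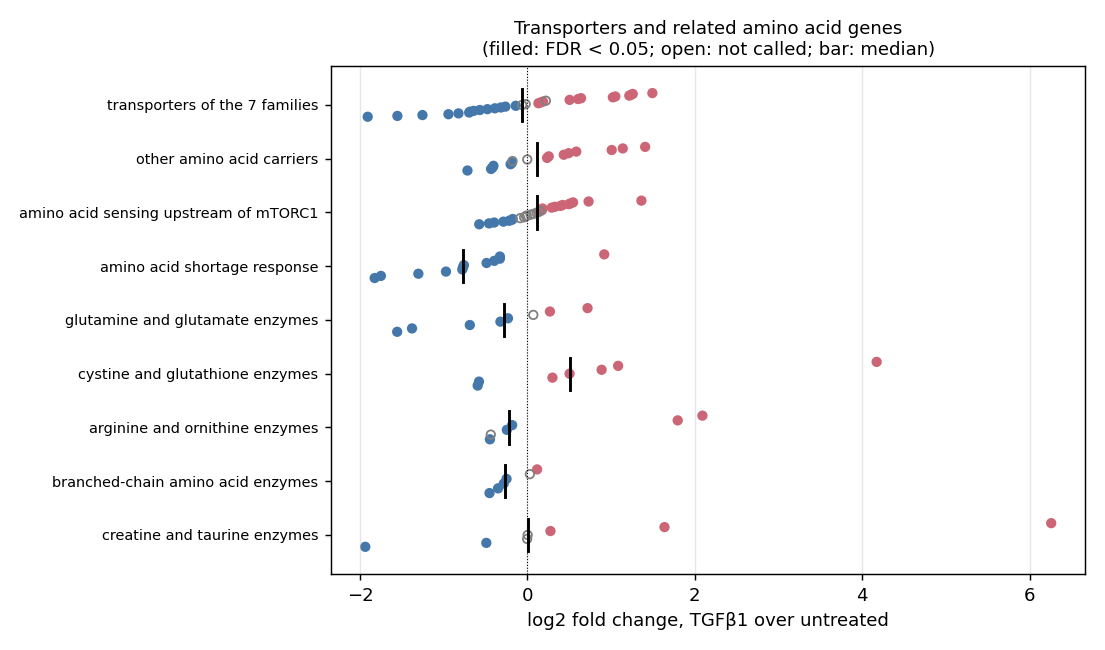
Log2 fold changes of the 29 tested transporter genes and of 8 lists of related genes, 1 point per gene, filled where the FDR was under 0.05, with a bar at each median. The transporter genes spread to both sides with a median of -0.06, the shortage response lies almost wholly to the left with a median of -0.76, and the point farthest to the right, at 6.26 and fitted against a few counts per untreated library, is Ckmt1.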

How the data were processed

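RNA of untreated and TGFβ1-treated SV-LECs (4 libraries each, grouped by sample title) was sequenced as single-end 75-base reads from stranded poly(A) libraries. The submitters' processing notes name bcl2fastq 2.20.0.422, STAR 2.7.3a, featureCounts 1.5.1 and GRCm38. The authors deposited whole-number counts of reads per gene without normalization. The annotation release and the strand setting are not given in the sources used here. The counts were filtered by filterByExpr of edgeR 4.0.16 (R 4.3.3), scaled by TMM and compared with glmFit and glmLRT, the kind of test that the study's methods name. DESeq2 1.42.0 and the quasi-likelihood test served as alternatives, with other scalings, filters, a replicate block and single libraries left out. Standard errors came from the fitted negative binomial weights. The scripts were tested on simulated counts. Positions, exon lengths and shared 75-base stretches came from GENCODE M21, promoters from RefSeq.

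The genes and lists were chosen with earlier results of these data known. Within each family, the called gene with the largest rise, the largest fall and the highest level per kb is given by library, and from each related list up to 2 genes in each direction are named. Slc7a11, Slc7a2 and Slc1a6, the last of which was not called, are given by library outside this rule. The motifs were chosen after the values were seen. Floors of 3 counts cover counting error only.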

Additional observations from a re-analysis of the deposited data

Results flagged for a closer look

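Over the 29 tested genes, each group of 4 libraries was examined for a library set apart from the others, 58 examinations in all. Chance alone sets a library apart in about 1 of 20 such groups, and 5 were found, in 4 genes. Untreated replicate 4 accounted for 4 of them. It was lowest for Slc1a4, at 65.7 CPM with the nearest library at 76.4, and for Slc3a2, at 433 CPM with the nearest at 493. It was highest for Slc38a1, at 131 CPM with the nearest at 121, and for Slc6a8, at 76.3 CPM with the nearest at 71.5. TGFβ1 replicate 1 was lowest for Slc3a2, at 311 CPM with the nearest at 327. Without untreated replicate 4 the log2 fold changes were -0.70 for Slc1a4, -0.62 for Slc3a2, -0.45 for Slc38a1 and 0.53 for Slc6a8, and without TGFβ1 replicate 1 that of Slc3a2 was -0.55. All 4 genes were called in these fits.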

How the results depend on the processing

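The counts of 12 higher and 14 lower transporter genes stayed between 9 and 16 and between 13 and 15 over all alternatives. The quasi-likelihood test and DESeq2 size factors called the same 26 genes. Library totals alone, which shifted the median log2 fold change of all genes by -0.07, called 9 higher and 15 lower. DESeq2 called 13 and 14, and fits without a filter on low counts called 16 and 14, adding Slc36a2, Slc38a4, Slc38a8, Slc3a1 and Slc7a14, all with few counts. With a replicate block, 11 were higher and 14 lower, and the call of Slc38a9 was lost (FDR = 0.0681 from edgeR). The replicate numbers only name the samples. Deviations of libraries with the same number correlated between -0.40 and -0.06 across 9977 genes, so no pairing by number was used. Some libraries with unlike numbers did share deviations. Their correlations ranged from -0.47 (untreated replicate 1 and TGFβ1 replicate 2) to 0.53 (untreated replicate 1 and TGFβ1 replicate 4). The source of these shared deviations was not tested, and the main fit does not model them. Slc6a17, never called, changed sign with the replicate block (0.015) and, with single libraries left out, ranged from -0.20 to 0.23. Slc1a3 and Slc6a17 rest on at most 30 counts per library, and for the 32 untested genes no difference could be tested at this depth with the filter used.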
